A study of Mus musculus with 8 samples.

Results

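Annexins and S100 proteins, both of which bind calcium, were followed at the RNA level in mouse mammary tumors treated with calcipotriol or with its solvent. The genes were chosen by symbol: protein-coding genes named Anxa or S100a followed only by digits, and S100b, S100g, S100z and S100pbp. This rule gave 28 of the 55414 gene identifiers in the table, 11 of them annexins and 16 S100 genes, with S100pbp, an S100P-binding protein that is not itself an S100 protein, as the last. Anxa13 and S100a7a fell just outside it, the first because the annotation does not list it as protein-coding and the second because a letter follows its number. No expression value enters the rule, but the families were selected on earlier results from the same tumors. The calls below therefore describe these genes, and no count over them is independent support for a change in the families.

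The tumors grew from a PyMt cell line that came from a tumor of MMTV-PyMt transgenic mice, in which a promoter active in mammary epithelium drives a viral oncogene. The cells were implanted into the mammary fat pad of WT female C57BL/6 mice aged 6 to 8 weeks, so that all tumors come from 1 line. Calcipotriol, a vitamin D analog, was applied to the skin over the tumor at 20 nmol every 2 days from day 2 after implantation, and EtOH, its solvent, was given to the controls. RNA was taken 24 hours after the last treatment from 4 tumors per group, called EtOH replicates 1 to 4 and calcipotriol replicates 1, 5, 6 and 7 after their labels.

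Annexins bind the acidic phospholipids of membranes when calcium is present, and they take part in membrane repair, in vesicle traffic and in linking membranes to actin. S100 proteins are small EF-hand proteins that mostly work as dimers and change shape on binding calcium, which lets them dock onto partner proteins. The families meet in complexes, of which annexin A2 with S100A10 and annexin A1 with S100A11 are the best known. Several S100 proteins also leave the cell and act on receptors of immune cells.

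Most of the S100 genes lie together. On mouse chromosome 3 (GRCm38), 13 of the 16 were found between 90511034 and 93564643, and 11 of these lay within 185 kb, from S100a1 at 90511034 to the end of S100a9 at 90695721. The annexins are spread over several chromosomes. Anxa8 (ENSMUSG00000021950) is on the plus strand of chromosome 14, from 34085981 to 34100571, and Anxa6 (ENSMUSG00000018340) is on the minus strand of chromosome 11, from 54979108 to 55033445.

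RefSeq start sites of GRCm38.p6 gave a promoter window for 23 of the 28 genes. The first sequence shown is the 250 bases before the start of Anxa8, the gene that differed most between the groups. The others are 30 bases around a motif match in S100a4, S100a8, S100a11 and Anxa2. These stand for the most abundant genes, the neutrophil-associated pair and single subunits of annexin-S100 complexes. Capitals mark the match, and all lines run 5′ to 3′ on the plus strand, which is also the strand of these genes.
Anxa8 (chr14:34085729-34085978): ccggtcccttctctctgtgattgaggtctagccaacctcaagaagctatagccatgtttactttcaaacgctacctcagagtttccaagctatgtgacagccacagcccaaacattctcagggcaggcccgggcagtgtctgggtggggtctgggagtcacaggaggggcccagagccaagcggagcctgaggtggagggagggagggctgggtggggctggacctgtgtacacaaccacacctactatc
S100a4 (chr3:90603729-90603758): cctggcagggTATAAAtaggtcagattgtt
S100a8 (chr3:90669031-90669060): agctttcctcTATAAAagcagctgacactt
S100a11 (chr3:93520350-93520379): agagacctgtTGAGTCAcagggactacaac
Anxa2 (chr9:69453578-69453607): ccaagttggaTGAGTCAcccagcagggtgg

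Both strands of these windows were searched for TGANTCA, the motif of AP-1 factors written with any middle base. They were also searched for TATAAA, the core of a TATA box, and for the DR3 form of the vitamin D response element. TGANTCA and TATAAA cannot overlap each other, whereas the DR3 element can share letters with the first of them. The AP-1 motif was present in 4 of the 31 windows of these genes (in Anxa2, Anxa10, S100a11 and S100a16) and in 6.75% of all 32851 windows. TATAAA was present in 6 of the 31 windows (in Anxa1, Anxa2, Anxa10, S100a3, S100a4 and S100a8) and in 12.4% of all windows. In S100a4 and S100a8 the TATAAA match began 31 and 30 bases before the RefSeq start. No window of the 23 genes held a DR3 match, which 0.0396% of all windows did, and the Anxa8 window held none of the 3 motifs.

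RNA-Seq counts were deposited as estimated reads per gene and totaled 19685397 to 25084715 per tumor. Levels are given as CPM, counts scaled to a common library total by TMM, which sets the libraries so that most genes do not change. TPM, in which counts are also divided by gene length, is used wherever different genes are compared. EtOH replicates 1 and 2 stood apart from replicates 3 and 4: they were on opposite sides in 58.3% of the 14458 genes tested and in 82.6% (19 of 23) of the annexin and S100 genes tested, higher in 7 and lower in 12. Epcam, an adhesion molecule of epithelial cells, was at 0 in replicates 1 and 2 and at 4.29 and 2.87 CPM in replicates 3 and 4. The labels call the cells epithelial, and the luminal keratin Krt8 was at 523 to 652 CPM with EtOH and 285 to 516 CPM with calcipotriol, but markers of macrophages, fibroblasts and blood cells were abundant too. In bulk tumor RNA, fewer cells of a type and less RNA per cell cannot be told apart.

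Several of these genes were among the most abundant transcripts of the tumors, and their levels spanned more than 3 orders of magnitude. S100a4, a metastasis-associated protein that binds nonmuscle myosin, had the highest mean TPM of the 28 genes and ranked 14 among all genes in the EtOH tumors. It was at 6564, 5269.7, 5869 and 6652 TPM with EtOH and at 6294, 6753, 9149 and 5132 TPM with calcipotriol. The ranges overlapped, with both the highest and the lowest tumor in the calcipotriol group.

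S100a6, or calcyclin, a protein of proliferating cells, followed at rank 20. It was at 4934, 3851, 4675 and 5632 TPM with EtOH and at 5034, 4968, 6780.4 and 4685 TPM with calcipotriol. Again calcipotriol replicate 6 was the highest, and otherwise the groups overlapped. S100a4 exceeded S100a6 in 4 of 4 EtOH tumors although their ranges overlapped, and S100a4 and S100a6 together made 49.3% to 62.6% of the TPM of all 28 genes in a tumor.

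S100a11, the partner of annexin A1, came next and did not overlap its neighbors in this order. It was at 1944, 2425, 2834 and 2525 TPM with EtOH and at 2365, 2000.3, 2136 and 2174 TPM with calcipotriol. The calcipotriol tumors lay inside the EtOH range. Anxa5, whose protein binds exposed phosphatidylserine and is used to stain dying cells, was at 1326, 1233, 1694 and 1734 TPM with EtOH and at 1095, 1227, 1224 and 1431 TPM with calcipotriol. In TPM 3 of the 4 calcipotriol tumors were below every EtOH tumor, and the fourth was between them. In CPM only calcipotriol replicates 1 and 6 (649 and 754) were below the lowest EtOH tumor (811).

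S100a10, the light chain of the annexin A2 complex, was at 1320.2, 1199, 1478 and 1638 TPM with EtOH and at 1497, 1316, 1594 and 1436 TPM with calcipotriol. Its groups overlapped throughout. Anxa1, a mediator of the ending of inflammation, and Anxa2 overlapped each other, at 885 to 1393 and 933 to 1249 TPM in the EtOH tumors. The next were S100a16 at 445 to 624 TPM and Anxa6 at 334 to 362 TPM, neither of which overlapped its neighbors. Below them S100b (142 to 323 TPM), S100a1 (209 to 263 TPM) and S100a13 (175 to 254 TPM) did not differ beyond their spread.

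In the lower part of the order, Anxa3 (106 to 172 TPM), S100a9 (61.6 to 215 TPM) and Anxa11 (85.3 to 131 TPM) overlapped in the EtOH tumors, as did Anxa7 (68.6 to 78.7 TPM), Anxa4 (68.9 to 80.1 TPM) and S100a8 (30.9 to 120.4 TPM). Anxa8 stood at 10.1 to 24.1 TPM, rank 6123 of all genes, and overlapped S100pbp at 7.84 to 10.4 TPM. Anxa9 (3.0 to 6.92 TPM), S100a14 (2.60 to 4.92 TPM), S100a5 (0 to 4.52 TPM) and S100a3 (0.749 to 1.2 TPM) were lower still. With calcipotriol Anxa8 was at 138 to 208 TPM, inside the range of S100a9 in EtOH tumors and above that of Anxa11.

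**Figure D1:**
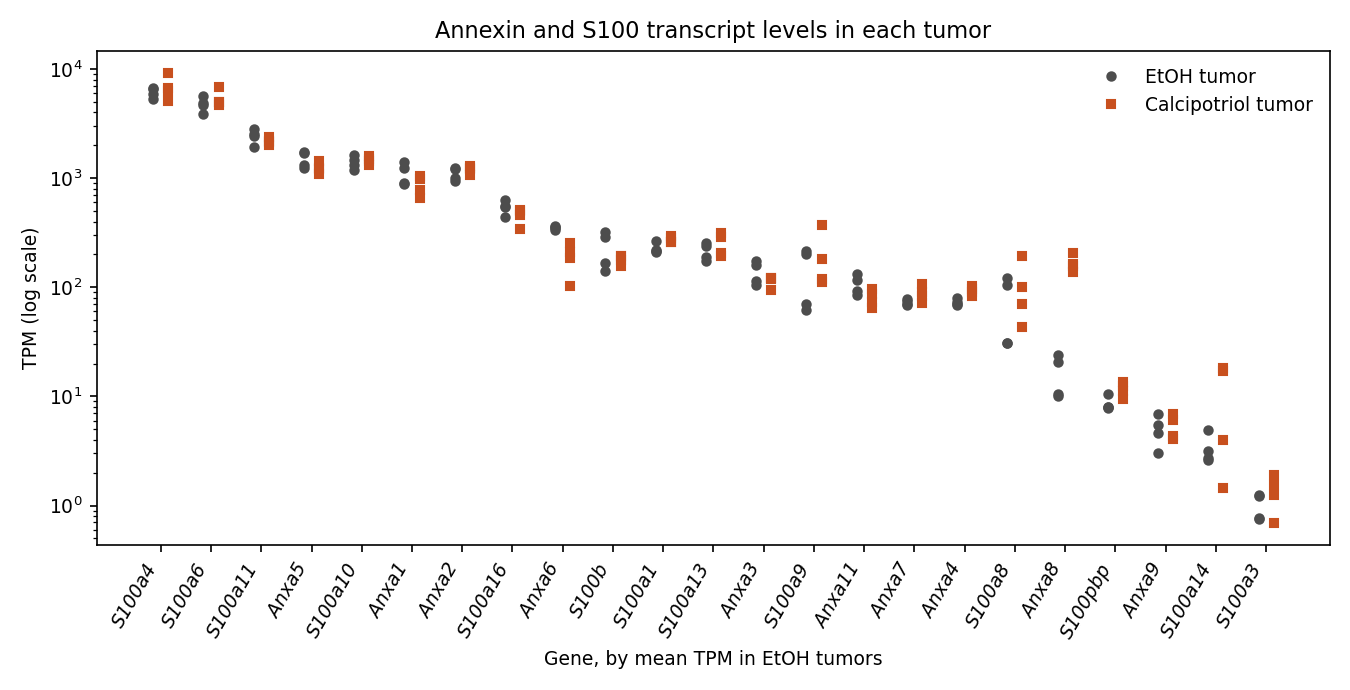
TPM (log scale) of the 23 tested genes in each tumor, ordered by mean TPM in EtOH tumors (circles, n = 4) with calcipotriol tumors (squares, n = 4) beside them. S100a4 and S100a6 are at the top at 3851 to 9149 TPM, and Anxa8 is the gene whose symbols separate most, at 10.1 to 24.1 against 138 to 208 TPM.

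The summed level of all 28 genes and that of the S100 genes differed little between the groups. That of the annexins was lower on average with calcipotriol. All 28 genes took 2.06% ± 0.163 (SD, n = 4) of the TPM with EtOH and 2.14% ± 0.278 (SD, n = 4) with calcipotriol. The annexins took 0.447% ± 0.019 (SD, n = 4) and 0.405% ± 0.0363 (SD, n = 4), and the S100 genes 1.61% ± 0.148 (SD, n = 4) and 1.73% ± 0.276 (SD, n = 4). For all 3 sums the ranges of the groups overlapped, and the tumor with the most S100 RNA was calcipotriol replicate 6, at 2.12%. The annexins took 0.387%, 0.366%, 0.421% and 0.448% in calcipotriol replicates 1, 5, 6 and 7. Only replicate 7 was above the lowest EtOH tumor (0.428%). The difference in these sums was not tested.

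To learn which of these genes differed with treatment, edgeR's quasi-likelihood test was run on all 14458 genes with enough counts, 23 of them annexin or S100 genes, and called where the Benjamini-Hochberg adjusted p was under 0.05 and the log2 fold change reached 1 or -1. Standard errors (SE) and adjusted p are those of this edgeR fit. Anxa8 rose and Anxa6 fell, and no S100 gene passed. This was 1 of 23 genes higher, against 1.07% of all genes tested, and 1 of 23 lower, against 0.948%, and nothing is read from these shares because the families were selected on this comparison. In fits that left out a single tumor, the count of higher genes stayed at 1, whereas the count of lower genes was 0 in 7 of 8 fits, all but that without calcipotriol replicate 1. The median log2 fold change was 0.07 over the 23 genes, -0.20 over the 10 annexins tested, 0.10 over the 12 S100 genes tested and 0.02 over all genes. The absolute log2 fold change was under 0.5 in 19 of the 23 genes (82.6%) and in 71.9% of all genes.

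**Figure D2:**
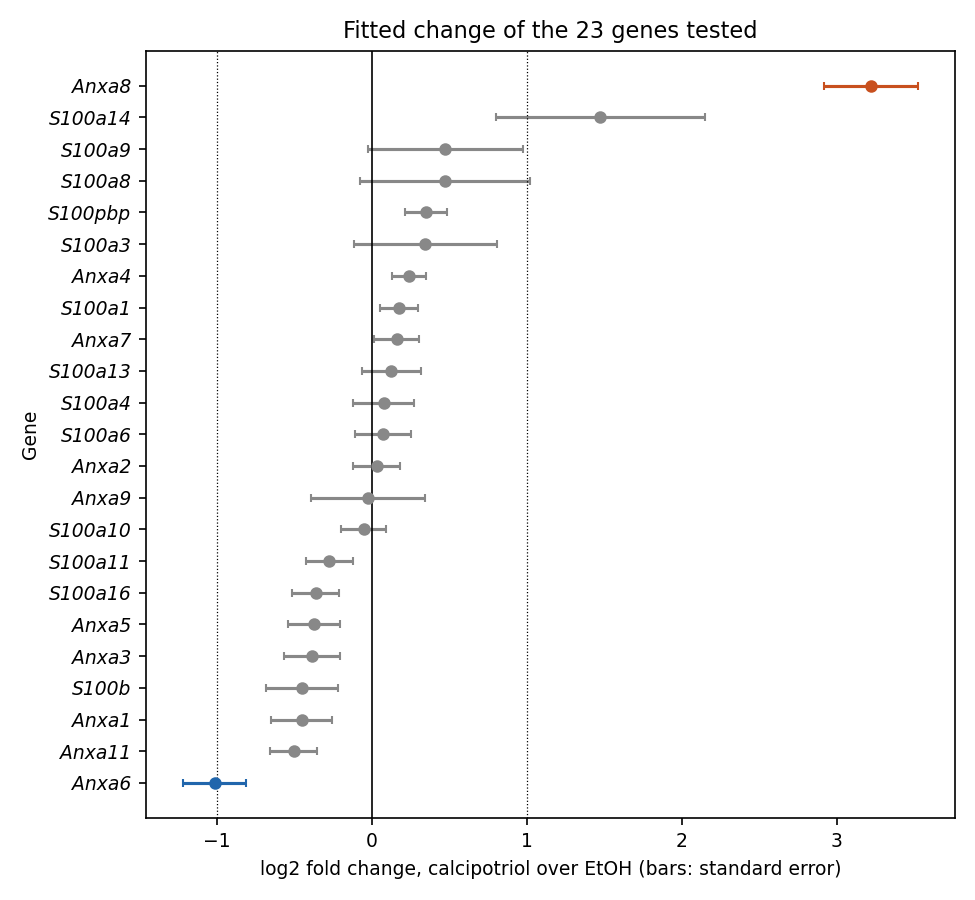
Fitted log2 fold change of the 23 tested genes, calcipotriol over EtOH, from edgeR (bars are standard errors, 4 tumors per group, dotted lines mark log2 fold changes of 1 and -1). Anxa8 (3.22) is far to the right and Anxa6 (-1.01) is the lowest, and S100a14, the remaining gene past a line at 1.48, has the widest bar.

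Anxa8 encodes an annexin first known as an anticoagulant protein, found in squamous and other lining epithelia and involved in the organization of late endosomes. It was at 6.81, 7.20, 14.5 and 17.4 CPM in EtOH replicates 1 to 4 and at 130.2, 97.9, 101 and 99.5 CPM in calcipotriol replicates 1, 5, 6 and 7. Every calcipotriol tumor was above every EtOH tumor by a wide margin, and calcipotriol replicate 1 was the highest. The means were 11.5 ± 5.29 CPM (SD, n = 4) and 107 ± 15.4 CPM (SD, n = 4), which gave a log2 fold change of 3.22 (SE 0.30, edgeR adjusted p = 0.0011), or 9.32-fold. With each tumor left out in turn, it stayed between 3.04 and 3.49 and past both thresholds. A630023A22Rik, which overlaps Anxa8 on the opposite strand, had at most 0.288 CPM in any tumor.

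Markers of basal and stratified epithelium were examined beside it. Of 12 such genes, 7 were tested, and Krt14, a keratin of basal cells, and Trp63, their lineage transcription factor, were higher. Krt14 was at 0.584, 0, 1.5 and 0.662 CPM with EtOH and at 1.59, 10.2, 46.3 and 43.4 CPM with calcipotriol (log2 fold change 5.17, SE 1.07, edgeR adjusted p = 0.0336). Trp63 had a log2 fold change of 2.57 (SE 0.53, edgeR adjusted p = 0.0333). The 12 markers summed to 18.7 to 26.9 CPM with EtOH and to 22.4 to 82.2 CPM with calcipotriol. The other 5 tested did not pass, among them Krt5, the basal partner of Krt14 (log2 fold change -0.27, edgeR adjusted p = 0.927), and Lor, a protein of the cornified layer (-1.01, edgeR adjusted p = 0.246). Krt1 and Ivl, which mark differentiated layers, were at 0.278 CPM or less in all tumors, whereas Lor was at 7.41 to 11.8 CPM with EtOH and 2.06 to 9.23 CPM with calcipotriol. In calcipotriol replicate 1, the tumor with the most Anxa8, the sum of 22.4 CPM was inside the EtOH range, Krt14 at 1.59 CPM was just above its highest EtOH value, and Trp63 at 3.5 CPM was above its highest EtOH value of 1.17 CPM. The part of these cells in the Anxa8 result was not tested.

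Anxa6, a large annexin with duplicated core domains that acts in endosome traffic and cholesterol handling, changed in the other direction. It was at 358, 372, 378 and 408 CPM with EtOH and at 249.8, 114, 187 and 199 CPM with calcipotriol. The EtOH tumors lay close together, with the smallest coefficient of variation of the 23 genes in that group (5.53%), and each was above all calcipotriol tumors. The means were 379 ± 20.9 CPM (SD, n = 4) and 187.5 ± 55.9 CPM (SD, n = 4), which gave a log2 fold change of -1.01 (SE 0.21, edgeR adjusted p = 0.0306). Anxa6 lies at the edge of the thresholds. With 1 tumor left out it missed at least 1 of them in 7 of 8 fits, at an adjusted p of 0.0649 to 0.0987 without any single EtOH tumor or calcipotriol replicate 6 or 7, and at a log2 fold change of -0.84 without calcipotriol replicate 5. Without calcipotriol replicate 1 it was at -1.18 with an adjusted p of 0.007.

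Markers of cell types whose summed level moved in the same direction as Anxa6 are given as values. The 10 macrophage markers summed to 2184 to 2654 CPM with EtOH and 1108.5 to 1946 CPM with calcipotriol. Adgre1 and Csf1r were lower (log2 fold change -1.24 and -1.64, edgeR adjusted p = 0.0325 and 0.0374), but Cd163 was higher (1.87, edgeR adjusted p = 0.0192). By staining for the protein of Adgre1, the paper counted significantly more macrophages in calcipotriol-treated tumors. That count was of stained cells in mice also given IgG, whereas the values here are RNA. Of 8 endothelial markers 5 were lower (Pecam1, Kdr, Tie1, Esam and Robo4), and the sum was 153 to 341 CPM with EtOH and 61.4 to 114 CPM with calcipotriol. Of 7 erythroid markers 5 were lower, and the sum was 3460 to 5838 against 435 to 821 CPM. Luminal epithelial markers summed to 1073 to 1408 CPM with EtOH and 657 to 975 CPM with calcipotriol without overlap. Most of this sum was Krt8 and Krt18. Krt18 was at -0.93 (edgeR adjusted p = 0.0162) and Krt8 at -0.69 (edgeR adjusted p = 0.0966), both short of the fold threshold. Epcam (2.62), Cdh1 (0.45), Krt19 (0.39) and Gata3 (0.24) went the other way without passing. The median log2 fold change of the 8 luminal markers tested was 0.31, against 0.02 over all genes. Calcipotriol replicate 1, which had the most Anxa6 in its group, also had the highest macrophage, endothelial and luminal sums in its group. Single markers were divided. Adgre1, Csf1r, Cd68, Fcgr1, C1qa, C1qb, C1qc, Pecam1 and Cdh5 were highest of the calcipotriol tumors in replicate 1. Mrc1 (181 CPM), Cd163 (51.7 CPM), Mertk (8.14 CPM), Emcn (6.0 CPM), Esam (7.35 CPM) and Robo4 (3.06 CPM) were lowest there. Kdr, Tek and Tie1 lay between. The part of these cells in the Anxa6 result was not tested.

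The remaining annexins differed less. Anxa4, which binds membranes of epithelial secretory cells, was at 117, 141, 121.5 and 123 CPM with EtOH and at 150.6, 145, 146 and 153 CPM with calcipotriol. These groups did not overlap, but the step was small, at a log2 fold change of 0.24 (SE 0.11, edgeR adjusted p = 0.269), and did not pass. Anxa11, an adaptor between RNA granules and lysosomes, was at 187, 185, 141 and 136 CPM with EtOH and at 134, 101, 105 and 117 CPM with calcipotriol. Its groups were also separate in CPM, although EtOH replicate 4 and calcipotriol replicate 1 nearly touched. In TPM they overlapped, with these tumors at 85.3 and 97.3. The log2 fold change was -0.50 (SE 0.15, edgeR adjusted p = 0.112). By CPM, 2 of the 23 genes did not overlap and were higher with calcipotriol (Anxa8 and Anxa4), against 6.32% of all genes tested. Likewise 2 were lower (Anxa6 and Anxa11), against 6.16%.

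Anxa1 (log2 fold change -0.45), Anxa3 (-0.39) and Anxa5 (-0.37) had adjusted p from 0.252 to 0.286 in edgeR, with overlapping groups. Anxa7, a fusion-promoting annexin, was at 0.16, Anxa2 at 0.03 and Anxa9 at -0.02, and their standard errors of 0.15, 0.15 and 0.37 were about as large as these differences or larger. Anxa2, which serves as a plasminogen receptor together with S100A10, was at 1296, 1321, 1679.6 and 1790.7 CPM with EtOH and at 1518, 1521, 1688 and 1492 CPM with calcipotriol. All calcipotriol tumors lay within the EtOH range. No count was found for Anxa10 in any tumor, which allows up to 3 counts, or 0.119 to 0.146 CPM, per library.

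**Figure D3:**
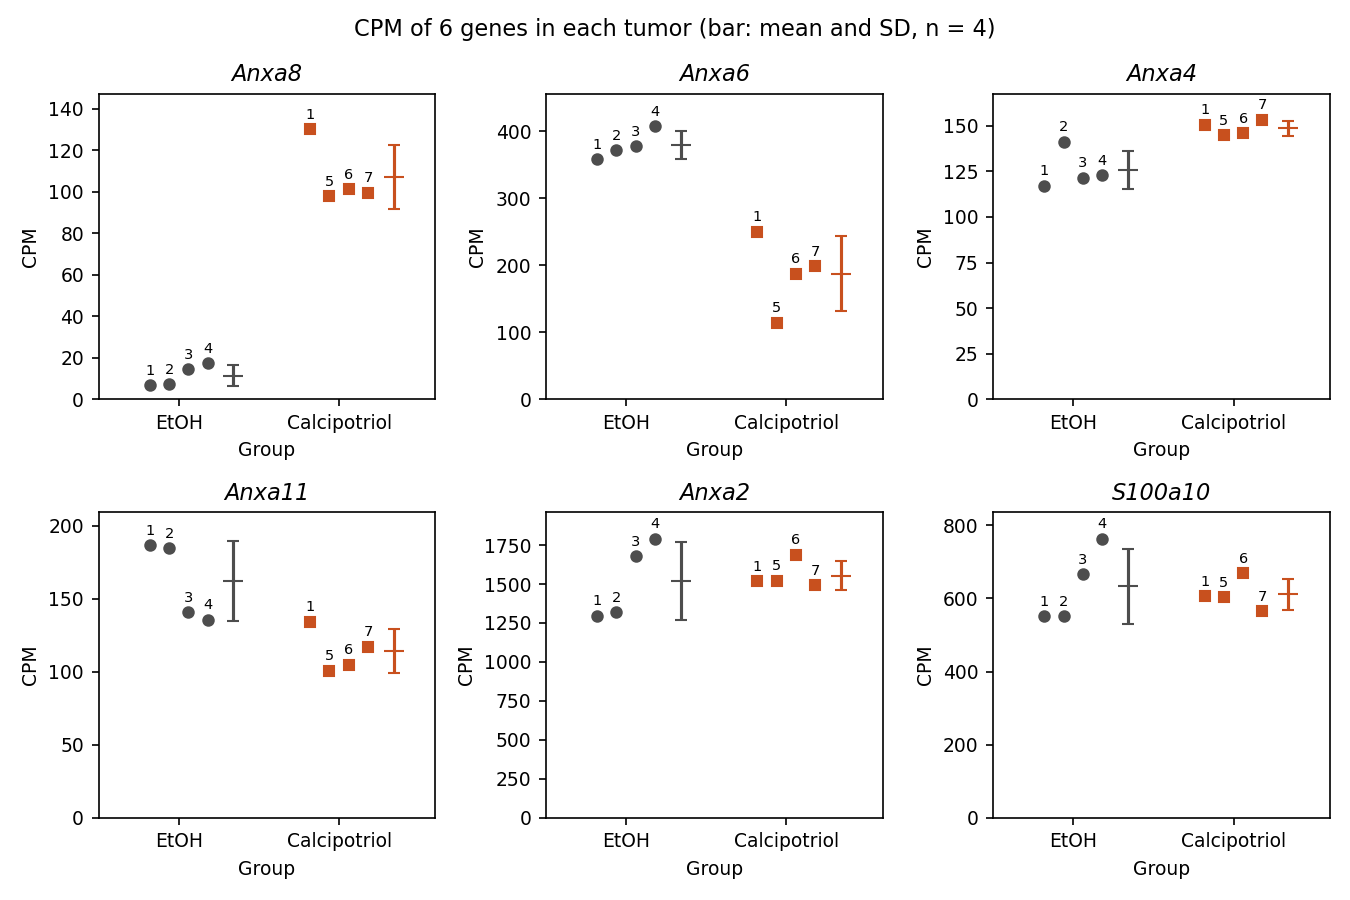
CPM of Anxa8, Anxa6, Anxa4, Anxa11, Anxa2 and S100a10 in each tumor, labeled by replicate number, with the mean and SD of each group (n = 4). The groups are separate for Anxa8 (at most 17.4 against at least 97.9), Anxa6, Anxa4 and Anxa11, and overlap for Anxa2 and S100a10.

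The RNAs for the subunits of the annexin A2 complex differed little in their ratio. The ratio of S100a10 to Anxa2 in TPM was 1.28 ± 0.0414 (SD, n = 4) with EtOH and 1.21 ± 0.0282 (SD, n = 4) with calcipotriol. It ran from 1.17 to 1.31 over the 8 tumors. Of the calcipotriol tumors, only replicate 1, at 1.228, was above the lowest EtOH ratio of 1.222. S100a10 itself had a log2 fold change of -0.05 (SE 0.14). The ratio of Anxa8 to Anxa6, the annexins that passed in opposite directions, went from 0.0296 to 0.0664 with EtOH to 0.781 to 1.33 with calcipotriol, so that their levels per length became similar.

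Among the secreted S100 proteins, S100a8 and S100a9 form calprotectin, a zinc- and calcium-binding complex that neutrophils and some monocytes carry in large amounts. S100a8 was at 28.7, 27.5, 8.02 and 8.25 CPM with EtOH and at 10.1, 50.4, 24 and 15.9 CPM with calcipotriol. S100a9 was at 38.6, 40.2, 13.5 and 12.4 CPM with EtOH and at 19.7, 72.9, 32.7 and 20.2 CPM with calcipotriol. Both were high in EtOH replicates 1 and 2 and highest in calcipotriol replicate 5, and the groups overlapped. Their log2 fold changes were 0.47 (SE 0.55, adjusted p = 0.699) and 0.48 (SE 0.50, adjusted p = 0.668) by edgeR. Without calcipotriol replicate 5 they were -0.12 and -0.11.

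The ratio of S100a9 to S100a8 in TPM was 1.99 ± 0.189 (SD, n = 4) with EtOH and 2.0 ± 0.409 (SD, n = 4) with calcipotriol, while the level of each varied over more than 5-fold between tumors. A list of 12 neutrophil markers summed to 32.6, 47.1, 17.0 and 16.3 CPM with EtOH and to 16.3, 44.7, 18.5 and 20.2 CPM with calcipotriol. The tumors with the largest sums were again EtOH replicates 1 and 2 and calcipotriol replicate 5. The same tumors were highest for Retnlg, Mmp8 and Cxcr2. Ltf, in contrast, was lower in EtOH replicates 1 and 2 (1.85 and 1.36 CPM) than in replicates 3 and 4 (2.88 and 3.09 CPM). It was highest in calcipotriol replicates 6 and 7 (5.62 and 5.17 CPM). Csf3r was lower in calcipotriol replicate 5 (5.48 CPM) than in replicates 1 and 7. Of the 12 markers 7 were tested and none passed. Ly6g, Elane and Mpo, which define mature and developing neutrophils, were at 0.777 CPM or less in all tumors, and Retnlg reached 14.8 CPM in calcipotriol replicate 5. Csf3r, the receptor of the neutrophil growth factor G-CSF, was at 6.66 to 17.1 CPM with EtOH and 3.51 to 6.44 CPM with calcipotriol (log2 fold change -1.01, edgeR adjusted p = 0.151), opposite in sign to S100a8 and S100a9. The share of the S100a8 and S100a9 levels that came from neutrophils was not tested.

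**Figure D4:**
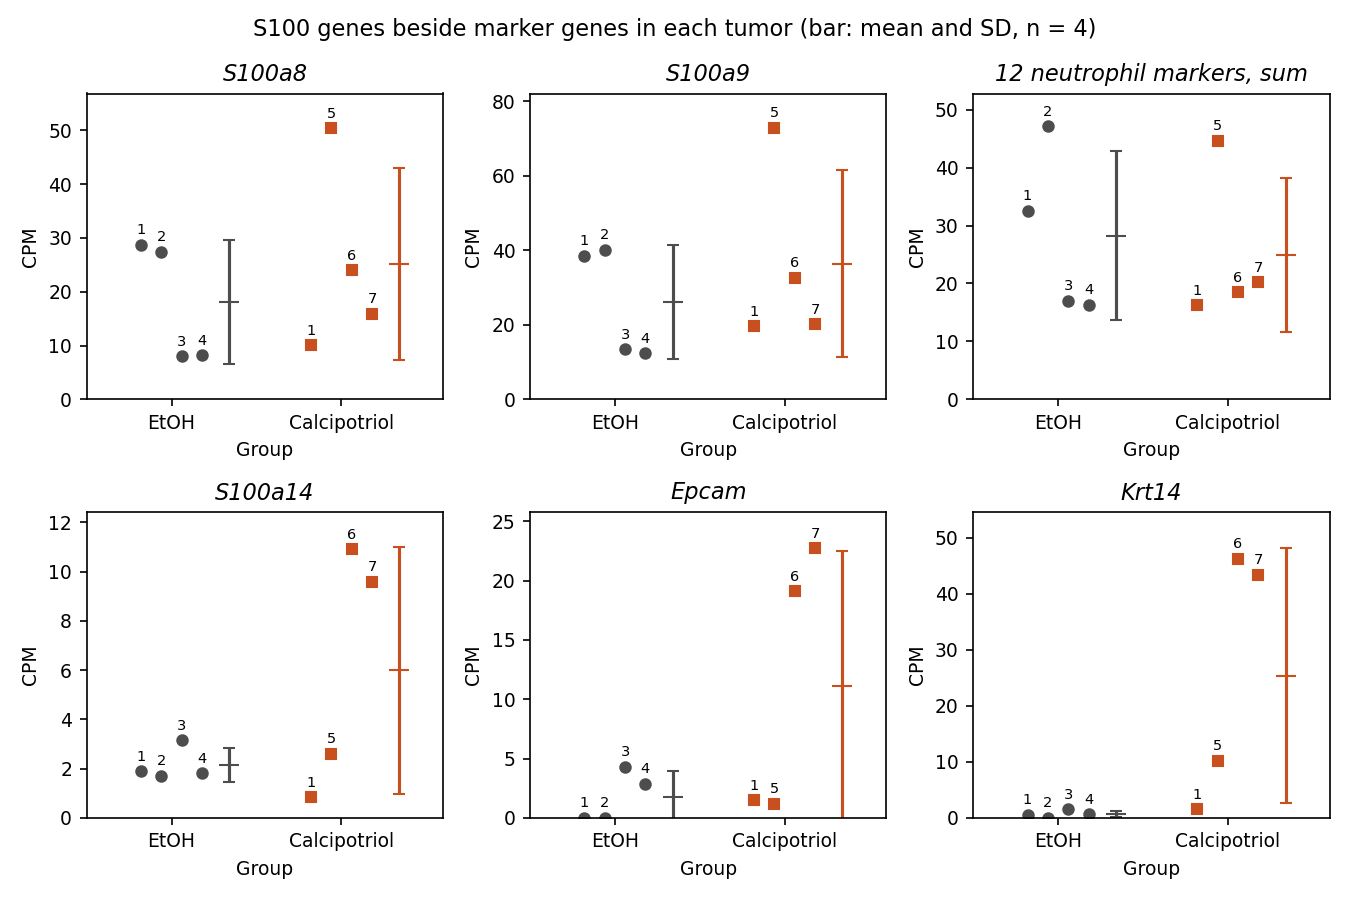
CPM of S100a8, S100a9, the sum of 12 neutrophil markers, S100a14, Epcam and Krt14 in each tumor, labeled by replicate number, with the mean and SD of each group (n = 4). EtOH replicates 1 and 2 and calcipotriol replicate 5 are high in the upper row, whereas calcipotriol replicates 6 and 7 are high in the lower row (S100a14 at 10.9 and 9.58, Epcam at 19.1 and 22.7, Krt14 at 46.3 and 43.4).

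S100a14, an S100 protein of epithelia, had the largest fitted change of the S100 genes without passing. It was at 1.90, 1.70, 3.16 and 1.81 CPM with EtOH and at 0.834, 2.60, 10.9 and 9.58 CPM with calcipotriol. Calcipotriol replicates 6 and 7 were above all others, while replicate 1 was the lowest of the 8 tumors, and the log2 fold change was 1.48 (SE 0.67, edgeR adjusted p = 0.277). Epcam, at 1.51, 1.19, 19.1 and 22.7 CPM in the calcipotriol tumors, and Krt14 were also highest in calcipotriol replicates 6 and 7. Within the calcipotriol group, so were Krt19 (2.34, 2.28, 5.53 and 7.16 CPM), Krt5, Lor and Sprr1a. In EtOH tumors, however, Krt19, Krt5 and Lor reached 7.15, 2.79 and 11.8 CPM. Some other epithelial markers had a different order. Cdh1 (22.6 CPM), Krt8 (516 CPM), Krt18 (348 CPM) and Sfn (11.5 CPM) were highest of the calcipotriol tumors in replicate 1, where S100a14 was lowest. Trp63 was highest in replicate 5 (7.54 CPM). The part of epithelial cells in the S100a14 values was not tested.

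S100b, known from glia and melanocytes, was at 148, 182, 78.6 and 94.9 CPM with EtOH and at 88.0, 88.6, 99.3 and 92.7 CPM with calcipotriol. The EtOH tumors were split, with a coefficient of variation of 37.9%, whereas the calcipotriol tumors lay close together at 5.66%, inside the EtOH range. Its log2 fold change was -0.45 (SE 0.23, edgeR adjusted p = 0.337). A list of 10 Schwann cell and melanocyte markers summed to 4.18 to 11.1 CPM with EtOH and 3.48 to 7.51 CPM with calcipotriol. Mbp was the highest of them, at 2.92 to 7.89 CPM with EtOH and 1.74 to 5.28 CPM with calcipotriol. Its log2 fold change was -0.92 (edgeR adjusted p = 0.292). Sox10 was at 0.865 CPM or less, and Cdh19 and Tyrp1 were at 0 in all tumors. The part of these cells in the S100b values was not tested.

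Of the mainly intracellular S100 genes, S100a4 and S100a6 had log2 fold changes of 0.08 (SE 0.20) and 0.07 (SE 0.18), S100a1, a regulator of calcium cycling in muscle, of 0.18, and S100a13, which helps export growth factors, of 0.13. S100a11 was at -0.27 and S100a16 at -0.36, with adjusted p of 0.37 and 0.235 by edgeR. S100a3, a cysteine-rich protein of the hair cuticle, was at 1.27 to 4.07 CPM in all tumors, with a log2 fold change of 0.35. S100pbp was at 33.9, 28.7, 28.1 and 28.5 CPM with EtOH and at 35.7, 33.4, 40.8 and 42.0 CPM with calcipotriol. Only EtOH replicate 1 reached into the calcipotriol range, and the log2 fold change was 0.35 (SE 0.14, edgeR adjusted p = 0.203).

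The S100 genes with too few counts for the test included S100g, calbindin D9k, an intestinal calcium carrier whose gene is a textbook target of vitamin D. It had 0 counts in the 4 EtOH tumors and 0, 3, 9 and 6 counts in calcipotriol replicates 1, 5, 6 and 7. Its calcipotriol mean was 1.51 times a floor of 3 counts per EtOH library, on 18 counts in all. Calcipotriol replicate 1 had none and replicate 5 only met that floor, so no increase is read from this ratio. A change in S100g was not tested. Its gene lies within the span of Ctps2 on the opposite strand, which was at 36.9 to 53.5 CPM. S100a2 had 0 counts with EtOH and 4, 0, 1 and 1 with calcipotriol and lies inside the S100a3 gene on the same strand, so its few reads cannot be told apart from S100a3 reads with certainty. S100a5 had 5, 0, 0 and 17 counts with EtOH and 3, 4, 11 and 6 with calcipotriol. S100z had no count in any tumor, with the same limit as Anxa10.

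The median coefficient of variation of the 23 genes between tumors of a group was 17.6% with EtOH and 14.3% with calcipotriol, beside 22.2% and 19.4% over all genes tested, a difference that was not tested and not matched for abundance. Anxa4 was the steadiest with calcipotriol (2.73%), and S100a8 with EtOH (63.7%) and S100a14 with calcipotriol (83.7%) varied most.

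Genes that work with these families were taken from lists fixed by known function. Of 10 genes for receptors of S100 proteins and annexins, all were tested and 1 was lower, Mcam, an adhesion molecule of vessels and melanoma that binds S100A8 and S100A9. Mcam was at 65.6, 54.1, 38.4 and 40.8 CPM with EtOH and at 21.5, 17.5, 23.9 and 17.4 CPM with calcipotriol. Its groups were well apart, with a log2 fold change of -1.31 (SE 0.20, edgeR adjusted p = 0.0107), and 5 of 8 endothelial markers were lower in the same tumors. Emb, a receptor related to basigin, was at 0.81 (edgeR adjusted p = 0.0812) without passing, and Ager and Tlr4, the best known S100 receptors, were at 0.41 and 0.01 (adjusted p = 0.874 and 0.987).

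Of 17 partner genes 14 were tested and none passed (median log2 fold change -0.08), among them Ahnak, a giant scaffold that binds the annexin A2 complex, at 0.34 (edgeR adjusted p = 0.216) and Myh9, the myosin bound by S100A4, at -0.49 (adjusted p = 0.307). Of 31 other calcium binders, such as calmodulins, reticulocalbins and copines, 22 were tested and none passed (median -0.05). The lowest values were those of Calm3 at -0.65 and Nucb1 at -0.62, with adjusted p of 0.0805 and 0.084. Of 7 fused-type S100 genes, large proteins of cornified epidermis that lie in the same gene cluster, 6 had no count in any tumor and the last, Tchh, was at 0.288 CPM or less, so none was tested.

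Of 7 genes for vitamin D-regulated calcium transport, 3 had enough counts and none passed. Vdr, the receptor of calcipotriol, was at 68.5, 50.0, 29.2 and 30.5 CPM with EtOH and at 56.9, 81.6, 77.7 and 80.1 CPM with calcipotriol (log2 fold change 0.73, edgeR adjusted p = 0.171). Atp2b1, a plasma membrane calcium pump, was at 0.53 (adjusted p = 0.0771). Cyp24a1, the vitamin D-degrading enzyme that is the classic target of the receptor, was at 0 in the EtOH tumors and calcipotriol replicate 1 and at 5.94, 1.73 and 2.20 CPM in calcipotriol replicates 5, 6 and 7. These were the same 3 tumors in which S100g had counts. Neither gene had enough counts for the test, and a link between them and Anxa8 was not tested.

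The other marker lists are given as sums of CPM. Fibroblast markers summed to 4843 to 5376 with EtOH and 3608 to 6372 with calcipotriol, and T cell markers to 1.59 to 3.36 and 2.16 to 13.5. Adipocyte markers summed to 21.0 to 45.8 and 14.5 to 34.9, and skeletal muscle markers to 3.99 to 44.6 and 2.46 to 9.66. No gene of these 4 lists or of the luminal list passed both thresholds.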

How the data were processed

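RNA-Seq of 8 mammary tumors (4 per group) was used. The authors deposited 1 table of estimated counts (RSEM expected counts) per gene with no scaling between tumors. The submitters' processing notes name STAR 2.5.3, RSEM 1.3.1, DESeq2 1.24.0 and the build GRCm38, and the paper names limma. The annotation and the strand setting are not given in the sources used here, so reads of genes that overlap could be split in unknown ways. In each tumor 4.2% to 6.22% of values were fractional, and the deposited expected counts were rounded, since the test had been planned for counts. The table had 0 columns of other samples. Identifiers were matched to GENCODE M21 symbols (52133 of 55414).

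In R 4.3.3, edgeR 4.0.16 (filterByExpr, TMM, glmQLFit and glmQLFTest) was fitted to all genes. The p-values measure the spread between these tumors, labeled as biological replicates, and the biological coefficient of variation was 0.347. CPM used TMM library sizes, and TPM was computed from them with the merged exon length of each gene. Floors of 3 counts cover counting error only.

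All 28 genes are named. Values in every tumor were planned for those past both thresholds in any fit, the 5 highest by level per length, and S100a8 and S100a9, and those of further genes were added after the values were seen. From the lists, genes past both thresholds were to be named, and the others named were chosen after their values were seen. The genes and lists were chosen with earlier results of these data known. Alternatives were DESeq2 size factors, no filter, at least 10 counts in every tumor, DESeq2 1.42.0, limma-voom (limma 3.58.1), no fold change minimum and each tumor left out. The scripts were tested on simulated data.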

Additional observations from a re-analysis of the deposited data

Results flagged for a closer look

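Within a group of 4 tumors, the highest or lowest tumor lay far from the other 3 by Dixon's criterion (95%, on log2 of CPM plus 0.1) in 3 of the 46 combinations of gene and group examined, where chance gives about 2.3. Anxa8 was at 130.2 CPM in calcipotriol replicate 1 and at 97.9 to 101 CPM in the other calcipotriol tumors. Anxa2 was at 1688 CPM in calcipotriol replicate 6 and at 1492 to 1521 CPM in the others of its group. S100pbp was at 33.9 CPM in EtOH replicate 1 and at 28.1 to 28.7 CPM in the other EtOH tumors. The cause was not tested.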

How the results depend on the processing

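The count of annexin and S100 genes higher with calcipotriol was 1 under all alternatives, and Anxa8 was that gene. The count of lower genes was 1, Anxa6, except that it ranged from 0 to 1 with a tumor left out (0 in 7 of 8 fits). Over all genes, 292 passed in the main comparison, 458 with no filter on low counts, 640 with the DESeq2 test and 110 to 642 with a tumor left out, the highest without calcipotriol replicate 1. In the lists of receptors, partners, other calcium binders, fused-type S100 genes and vitamin D calcium transport genes, 1 gene passed, 2 with no filter (Cyp24a1 added) and 1 to 3 with a tumor left out, the 3 without calcipotriol replicate 1 (Mcam, Alcam and Cyp24a1). These list counts were added as a result after the data were seen. The sign turned in 8 of the 23 genes, none of which passed. With a tumor left out, log2 fold changes ranged from -0.04 to 0.12 for Anxa2, -0.22 to 0.2 for Anxa9, -0.00075 to 0.25 for S100a13, -0.09 to 0.22 for S100a4, -0.06 to 0.19 for S100a6, -0.11 to 0.05 for S100a10, -0.12 to 0.79 for S100a8 and -0.11 to 0.76 for S100a9. Values on the other side of 0 were Anxa2 at -0.04, -0.03 and -0.0096 (without EtOH replicate 1, EtOH replicate 2 or calcipotriol replicate 6), and Anxa9 at 0.02, 0.2, 0.03 and 0.11 (without EtOH replicate 3 or 4, or calcipotriol replicate 5 or 7) and 0.0036 with limma-voom. S100a10 was at 0.05 without EtOH replicate 4, S100a6 at -0.0081 without EtOH replicate 2, and S100a4, S100a6 and S100a13 at -0.09, -0.06 and -0.00075 without calcipotriol replicate 6. S100a8 and S100a9 were at -0.12 and -0.11 without calcipotriol replicate 5. The causes were not tested. S100a14 was at 0.81 with limma-voom and 1.84 without calcipotriol replicate 1. Anxa11 reached an adjusted p of 0.0366 with the DESeq2 test but not the fold. No paired analysis was done because the labels give no pairing of tumors between the groups. S100g, S100a2 and S100a5 had too few reads for a test at this depth.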
